A study of Drosophila melanogaster with 3 samples.

Results

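The genes described here are 40 genes of the cell cycle and of DNA replication in Drosophila melanogaster, out of 13945 protein-coding genes on 6 chromosome arms. The rule that names them is a list of symbols and uses no measured value. The list was chosen with earlier results of these data known. It holds 17 replication genes (6 subunits of the origin recognition complex, 6 subunits of the MCM helicase, 2 licensing regulators and 3 genes of the fork and of nucleotide supply) and 23 other genes (cyclins, cyclin-dependent kinases and their regulators, E2F and Rb proteins, activators of the anaphase-promoting complex, mitotic kinases and checkpoint kinases). For each gene, peaks of Pdp1 binding were looked for within 500 bp of any annotated transcription start site (TSS), called the promoter, and in the gene or 2 kb upstream. Pdp1 is a transcription factor of the PAR basic leucine zipper family. It was precipitated with an anti-GFP antibody from flies of the strain Pdp1-MiMIC-GFP, in which an exon coding for eGFP sits in an intron of Pdp1, and the bound DNA was sequenced (ChIP-seq). All 3 samples are biological replicates of 1 group, whole embryos of both sexes collected from 0 to 24 h, so there is no comparison between groups. Whole embryos mix cycling, endocycling and arrested cells, and a peak does not say in which cells the factor was bound. Embryos without the tag were not analysed here.

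Replication begins when the origin recognition complex, with Cdc6 and Cdt1 (dup in the fly), loads the MCM helicase onto DNA, a step that geminin blocks outside G1. Cyclin-dependent kinases then drive the passage into S phase and mitosis. E2F with its partner Dp activates or represses S phase genes, the Rb proteins hold E2F in check, and the anaphase-promoting complex with fzy or fzr marks cyclins for destruction. Fly embryos begin with rapid divisions that run on maternal products, and later cycles acquire gap phases under the control of string (stg), cyclin E and dacapo (dap). Many fly replication promoters carry the DNA replication-related element TATCGATA, which is bound by the factor DREF, and E2F sites.

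Of the 40 genes, 18 (45.0%) had a summit at a promoter in the authors' thresholded list of 4622 peaks, against 20.7% of all protein-coding genes. The strongest was at Dp, the E2F partner, followed by Rbf2, dpa (the Mcm4 gene), RnrS and aurA. Among the replication genes 6 of 17 (35.3%) had a promoter summit, and among the others 12 of 23 (52.2%). In lists of the same length from single replicates the share of the 40 genes was 40% ± 6.61 (SD, n = 3) and that of all genes 19.9% ± 1.54 (SD, n = 3). The list was higher than all genes in every replicate. These counts are a description and carry no test.

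The DNA under some of these summits is shown first, since the later account of sites refers to it. The sequences are 5′ to 3′ on the strand of the gene, in Release 6 (dm6) coordinates of the RefSeq genome, and end before the start site. In the first 4 the capitals mark the 9 bases around the summit; in Rbf2 and in the mei-41 summit nearest the start site they mark TATCGATA. Mcm2, aurA and Cdk1 stand for promoters with support in every replicate, and CycE for a summit at an internal start site.
Mcm2, chr3R:8264838-8264969, plus strand: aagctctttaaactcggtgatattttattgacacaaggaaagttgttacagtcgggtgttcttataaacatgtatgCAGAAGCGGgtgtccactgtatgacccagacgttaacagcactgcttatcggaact
aurA, chr3R:11962966-11963123, plus strand: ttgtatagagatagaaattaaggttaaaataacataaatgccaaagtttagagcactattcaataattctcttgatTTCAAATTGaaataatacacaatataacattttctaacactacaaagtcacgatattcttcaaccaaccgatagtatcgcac
Cdk1, chr2L:10386394-10386554, minus strand: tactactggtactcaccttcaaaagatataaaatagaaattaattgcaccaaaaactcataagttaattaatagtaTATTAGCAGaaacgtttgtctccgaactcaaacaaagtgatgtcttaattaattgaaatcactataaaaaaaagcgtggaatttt
CycE, chr2L:15746923-15747083, minus strand: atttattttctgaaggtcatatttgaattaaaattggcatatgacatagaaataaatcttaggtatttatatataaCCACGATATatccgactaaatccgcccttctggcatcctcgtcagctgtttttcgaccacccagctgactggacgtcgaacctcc
Rbf2, chr3R:15965352-15965439, plus strand: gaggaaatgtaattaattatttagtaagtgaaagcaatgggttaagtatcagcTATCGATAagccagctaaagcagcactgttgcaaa
mei-41, chrX:16391616-16391697, plus strand: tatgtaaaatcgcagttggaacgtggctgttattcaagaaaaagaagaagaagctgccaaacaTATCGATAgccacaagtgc

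The next sequences are sites near start sites of genes of the list. The CycE stretch holds the letters TTTGGCGC of an E2F site at 2 places, 88 and 110 bp upstream of the same internal start site as the summit above, with TTTGGCGC in capitals; this stretch and the CycE summit above both overlap an exon of the noncoding gene lncRNA:CR44974. In Orc5, Cdk2 and CycA the capitals mark TATCGATA in promoters with no thresholded summit.
CycE, chr2L:15746674-15746744, minus strand: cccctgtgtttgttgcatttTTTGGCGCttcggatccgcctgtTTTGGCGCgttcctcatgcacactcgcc
Orc5, chr2L:13829747-13829794, plus strand: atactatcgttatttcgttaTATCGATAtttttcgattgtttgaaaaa
Cdk2, chr3R:20735542-20735589, plus strand: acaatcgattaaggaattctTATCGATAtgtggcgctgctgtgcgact
CycA, chr3L:11833579-11833609, minus strand: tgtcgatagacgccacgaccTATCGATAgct

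Each replicate list holds 30000 peaks in all, and the relaxed list called on the pooled replicates holds 27719. The lowest signal in the thresholded list is 102. The signal is the authors' own value per peak and is not scaled between lists, so values are read as ranks within a list. A peak found again in a replicate is a summit within 100 bp in its whole list, and support means a summit within 100 bp among the 4622 highest peaks of that replicate, its top list. Replicate 2 stood apart from the others: its whole list had promoter summits at 20 of the 40 genes, against 35 in each of replicates 1 and 3, where all genes had 36.7%, 53.7% and 54.2% in replicates 2, 1 and 3. It also held fewer of all thresholded promoter summits (82.4%, against 96.6% and 96.1%). Counts without replicate 2 are given with those for all genes below. A count without a replicate keeps the thresholded peaks that have support in both others. The thresholded peaks still come from all replicates pooled, so the replicate left out took part in choosing them. Read numbers were not analysed here, so the sequencing depth is unknown.

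**Figure D1:**
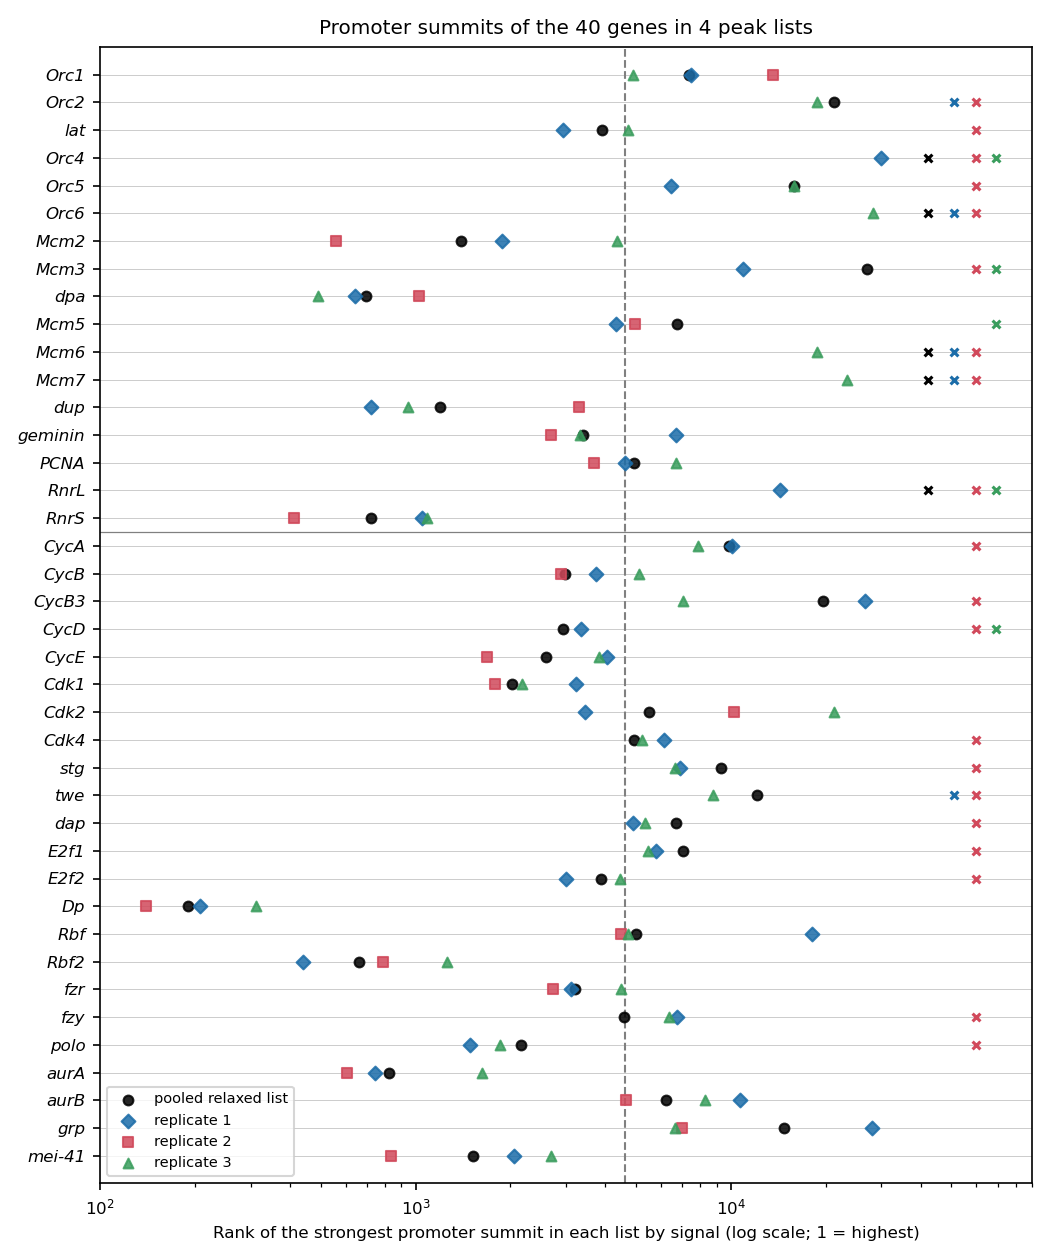
Rank of the strongest summit within 500 bp of a start site (horizontal axis, log scale, 1 is the highest signal) for each of the 40 genes (rows), in the pooled relaxed list and the 3 replicate lists. Crosses at the right mark lists with no promoter summit, the dashed line is rank 4622, and the horizontal line parts the 17 replication genes (above) from the 23 others; Dp has the ranks closest to 1 in every list, and most crosses belong to replicate 2.

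Of the origin recognition complex, which marks the places where replication can start, 1 of 6 genes (16.7%) had a promoter summit in the thresholded list, near the 20.7% of all genes, and 4 of 6 (66.7%) in the pooled relaxed list, against 51.1% of all genes. The thresholded one was at lat (FBgn0005654, named Orc3 in the annotation). Its peak at 2R:13205186-13205595, 54 bp upstream of a start site and inside UTR exons of the gene and of its neighbour CG34315, had a signal of 116 (rank 3888). It had 59.3 in replicate 1 and 33.9 in replicate 3 and was not found in replicate 2. Replicate 1 alone placed it in its top list. The other subunits had weaker summits or none: Orc1 reached 69.1, Orc5 40.4 and Orc2 33.9 in the pooled relaxed list, and Orc4 and Orc6 had no promoter summit there. A thresholded summit 1432 bp upstream of Orc6, with a signal of 106, lay 81 bp from the start site of Prosalpha7, a proteasome gene, and only replicate 1 held it.

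The MCM genes, whose products form the ring-shaped replicative helicase, were split. dpa (FBgn0015929), the Mcm4 gene, had the stronger of 2 promoter peaks, at 2R:7499875-7500065, with a signal of 358 (rank 696). Its values were 144, 92.8 and 125 in replicates 1, 2 and 3, a mean of 120 ± 25.7 (SD, n = 3), and it was high in every replicate, at ranks 642, 1023 and 489. The summit lay 100 bp upstream of a dpa start site and 170 bp upstream of that of didum, a myosin gene.

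Mcm2 (FBgn0014861) had a peak at 3R:8264793-8265009, 52 bp upstream of its only start site, with a signal of 242 (rank 1394). Its values were 78.4, 132 and 35.9 in replicates 1, 2 and 3 (82.0 ± 48.0, SD, n = 3). Replicate 2 ranked it much higher (560) than replicate 3 did (4353), where it was close to the end of the top list. The same summit was 467 bp upstream of RPA1, the gene of the large subunit of the single-stranded DNA binding protein RPA, so both replication genes share 1 peak. Mcm5 and Mcm3 had promoter summits below the threshold, at 74.4 and 29.2 in the pooled relaxed list, and Mcm6 and Mcm7 had none there. Mcm5 had 45.4 in replicate 1, inside its top list at rank 4308, 26.5 in replicate 2 and none in replicate 3. Upstream of Mcm3, 1176 bp from its start site, a thresholded peak with a signal of 255 was supported in every replicate (98.3, 103 and 53.5), but it sat 17 bp inside Rnp4F, a gene of RNA processing.

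Both licensing regulators had a promoter summit. dup (FBgn0000996), which encodes the helicase loader Cdt1, had a peak at 2R:15380586-15380739 with a signal of 264 (rank 1196), 45 bp upstream of a start site. The replicate values were 136, 37.9 and 90.3 (88.0 ± 49.0, SD, n = 3), low in replicate 2 and high in the others, and the peak was in all top lists. SRPK, a gene of a splicing kinase, has a start site 65 bp from the same summit. geminin (FBgn0033081), whose product binds and inhibits Cdt1, had a weaker peak at 2R:6656223-6656632, 27 bp upstream of a start site, with a signal of 130 (rank 3407). It had 34.0, 45.3 and 42.8 in replicates 1, 2 and 3 (40.7 ± 5.94, SD, n = 3) and fell outside the top list of replicate 1, at rank 6682.

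Of the genes of the fork and of nucleotide supply, RnrS (FBgn0011704), the small subunit of ribonucleotide reductase, had a peak at 2R:11985450-11985658, 167 bp upstream of its start site, with a signal of 352 (rank 721). The values were 111, 153 and 84.1 (116 ± 34.5, SD, n = 3), at ranks 1048, 411 and 1091, high in every list. CG34231 has a start site 448 bp away. The large subunit gene, RnrL, had no promoter summit in the pooled relaxed list and only a weak one in replicate 1 (21.9, rank 14318). PCNA, the sliding clamp, came just under the threshold, with 97.1 in the pooled relaxed list. Its promoter summit was inside the top lists of replicates 1 and 2, at ranks 4609 and 3684, and outside that of replicate 3 (6678). A thresholded summit (169) 1099 bp upstream lay 3 bp from the start site of RpS18, a ribosomal protein gene. That peak was not found in replicate 2.

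**Figure D2:**
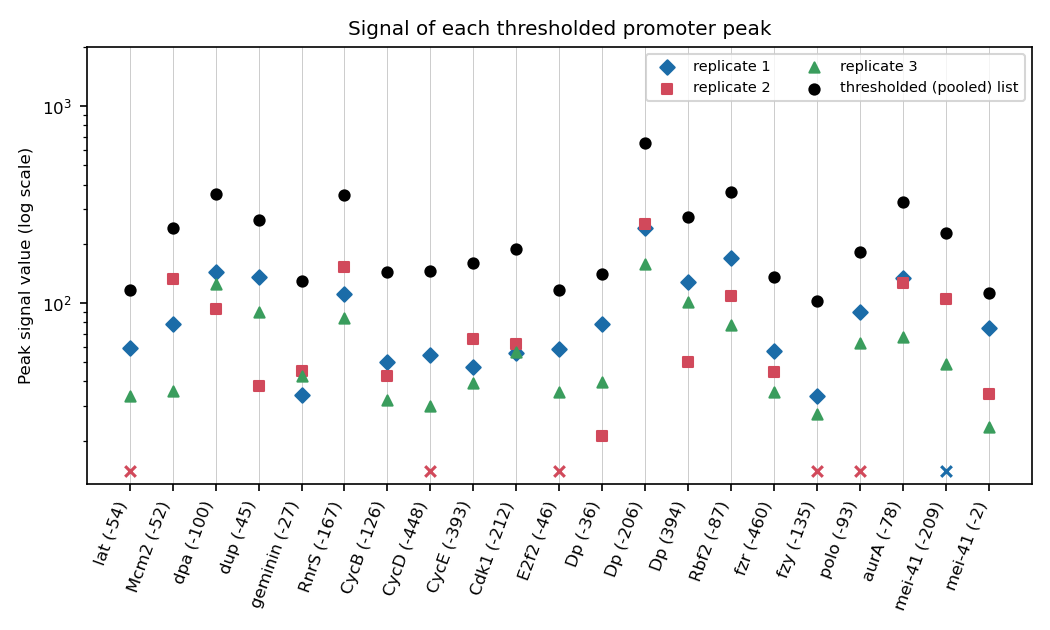
Signal of each of the 21 thresholded promoter summits of the 40 genes (vertical axis, log scale, the authors' units, not scaled between lists), with the distance from the start site in bp in brackets. Black circles are the thresholded list, coloured marks the nearest summit within 100 bp in each replicate list, and crosses at the bottom summits not found; the summit of Dp at -206 is the highest and that of fzy at -135 the lowest.

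Among the cyclins, CycB, CycD and CycE had promoter summits in the thresholded list, and CycA and CycB3 did not (54.8 and 35.5 in the pooled relaxed list). CycE (FBgn0010382), which drives entry into S phase, had a peak at 2L:15746798-15747207 with a signal of 160 (rank 2588), 393 bp upstream of an internal start site and inside an intron of the longer transcript. Its replicate values were 47.5, 65.5 and 39.3 (50.8 ± 13.4, SD, n = 3). All replicates placed it in the top list, with summits that differed by a few bp. CycB (FBgn0000405), a mitotic cyclin, had a peak at 2R:22806869-22807278 with a signal of 143, 126 bp upstream, and with 50.2, 42.5 and 32.0 (41.6 ± 9.14, SD, n = 3) it missed the top list in replicate 3. CycD (FBgn0010315), the partner of Cdk4, had a signal of 145 at X:15909919-15910328, 448 bp upstream. It had 54.2 in replicate 1 and was not found in replicate 2. In replicate 3 the matching summit (30.1) lay more than 500 bp from the start site, so the plot of ranks shows none there.

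Cdk1 (FBgn0004106), the kinase of mitotic entry, had a promoter peak at 2L:10386269-10386678, 212 bp upstream, with a signal of 189 (rank 2029) and replicate values of 55.6, 62.2 and 56.3 (58.0 ± 3.64, SD, n = 3), all inside the top lists. The start site of mRpS7, a mitochondrial ribosomal protein gene, was nearer, at 188 bp. Another thresholded summit 1741 bp upstream (139) was 102 bp from the start site of da, a helix-loop-helix factor, and was not found in replicate 2. Cdk4 and Cdk2 stayed below the threshold at their promoters, with 97.1 and 88.4 in the pooled relaxed list. Cdk4 had a thresholded summit 624 bp upstream of its outermost start site, at 2R:16578641-16579050, with a signal of 209. It had 89.7, 54.6 and 58.5 in the replicates (67.6 ± 19.2, SD, n = 3). No start site of another protein-coding gene lay within 500 bp of it.

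Of the 3 genes that set the activity of the kinases, 0 had a thresholded promoter summit, a count too small to set against the 20.7% of all genes, and all 3 had one in the pooled relaxed list. These are stg and twe, which encode Cdc25 phosphatases, and dap, an inhibitor of cyclin E with Cdk2, and they had 57.4, 47.6 and 75.0 in the pooled relaxed list. None of them had a promoter summit in replicate 2. A peak 528 bp upstream of stg (124) was just outside the window and had 36.5, 36.8 and 35.7 (36.4 ± 0.591, SD, n = 3), at ranks 5969, 3413 and 4385 in replicates 1, 2 and 3. It was outside the top list of replicate 1, and CG45544 starts 157 bp from it.

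The E2F and Rb genes included the strongest promoter peak of the list, that of Dp. Dp (FBgn0011763), the partner of both E2F proteins, had 3 promoter summits. The middle one, at 2R:13223219-13223524, had a signal of 653 and rank 190. Its replicate values were 240, 252 and 157 (216 ± 51.8, SD, n = 3), at ranks 207, 140 and 313. It lay 206 bp upstream of an internal start site, in an intron, with no start site of another protein-coding gene within 500 bp. Another summit 394 bp downstream of the same start site had a signal of 274, with 128, 50.1 and 101 in the replicates (93.3 ± 39.8, SD, n = 3). It was the only promoter summit of the list that lay downstream of the nearest start site of its gene. The remaining summit, 36 bp upstream of the outermost start site, had 140, lay in a UTR exon of the neighbour Fsn, and was weak in replicate 2 (21.1, against 78.0 and 39.7). Its mean of 46.3 was 30.4 without replicate 1.

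Rbf2 (FBgn0038390), one of the Rb family genes of the fly, had a signal of 365 (rank 660) at 3R:15965290-15965494, 87 bp upstream. The replicates gave 170, 109 and 77.6 (119 ± 47.2, SD, n = 3), high in every list. CG32856 starts only 8 bp from the summit. E2f2 (FBgn0024371), the repressive E2F, had a weak peak (116) at 2L:21156073-21156482, 46 bp upstream and 10 bp from the start site of Mpp6. It had 58.5 in replicate 1 and 35.3 in replicate 3 and was not found in replicate 2. A stronger summit (223) 1925 bp upstream of E2f2 lay between the start sites of Coq3 and Pld3, 63 and 173 bp away. Rbf, the main Rb gene, was just under the threshold at its promoter, with 95.6.

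E2f1 (FBgn0011766), the activating E2F, had no thresholded promoter summit at any of its 5 start sites (71.7 in the pooled relaxed list) but had peaks inside its 40.568 kb. The stronger, at 3R:21627764-21628173, lay in an intron 4724 bp downstream of the nearest E2f1 start site and had a signal of 193, with 84.9 in replicate 1, 42.8 in replicate 3 and none in replicate 2. The other, at 3R:21641468-21641877, had 133 (63.2, 38.6 and 33.8; 45.2 ± 15.7, SD, n = 3) and lay 3179 bp upstream of an internal start site. Another peak, 1768 bp upstream of the gene (105), lay in an intron of Archease.

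**Figure D3:**
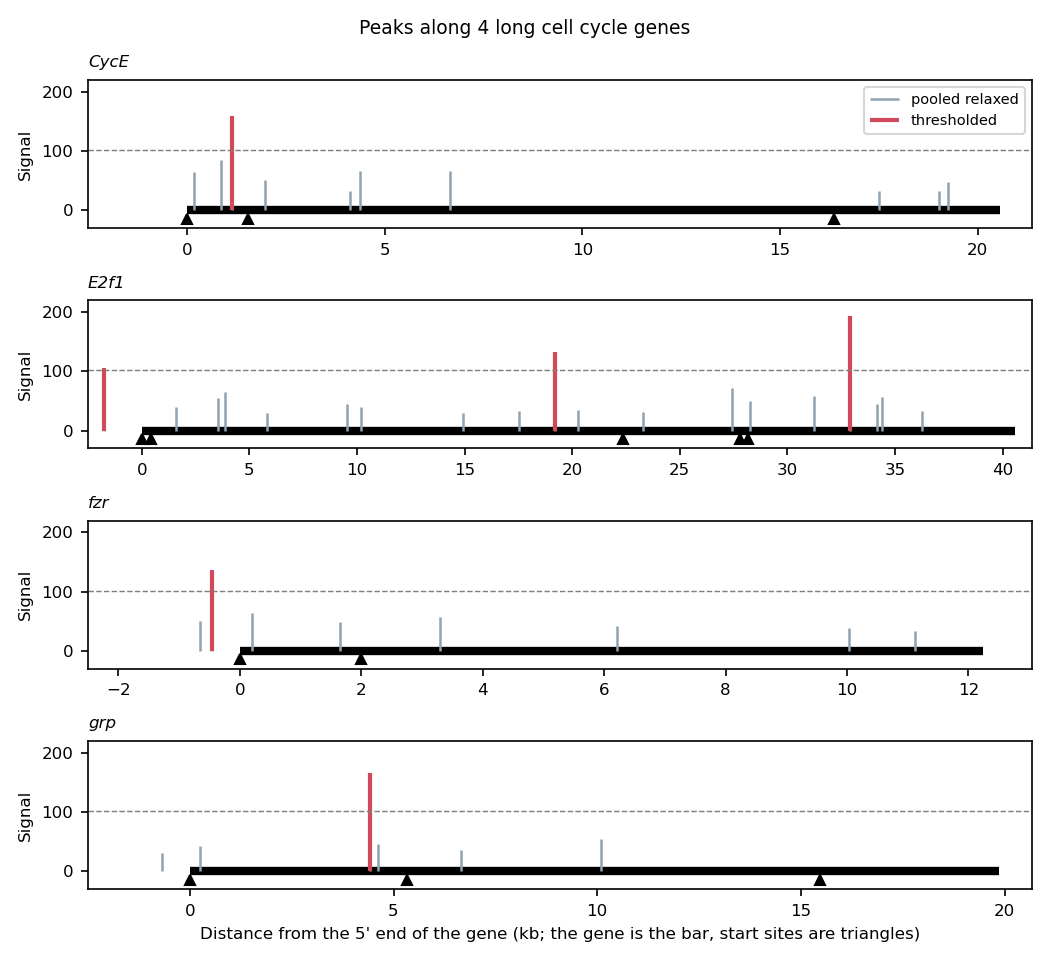
Thresholded peaks (red) and pooled relaxed peaks (grey) along CycE, E2f1, fzr and grp, by distance from the 5′ end of the gene in kb, with the authors' signal on the vertical axis. The black bar is the gene, triangles are start sites and the dashed line is the lowest signal of the thresholded list, 102; E2f1 has thresholded peaks at 19.198 and 32.902 kb, away from its start sites, and CycE has 1 near its internal start site at 1.54 kb.

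Both activators of the anaphase-promoting complex had weak promoter summits. fzr (FBgn0262699), which acts in G1 and in endocycles, had 136 at X:4679792-4680201, 460 bp upstream and inside a UTR exon of Pp2C1, with 57.0, 44.8 and 35.2 (45.7 ± 11.0, SD, n = 3), in all top lists. fzy (FBgn0001086), which acts in mitosis, had the lowest promoter signal of the list, 103 (rank 4573), at 2L:16310616-16311025, 135 bp upstream and 95 bp from the start site of cni. It had 33.8 and 27.2 in replicates 1 and 3 and was not found in replicate 2, and it was in no top list. It was thus just inside the threshold of 102, with PCNA, Cdk4 and Rbf, at 97.1, 97.1 and 95.6, just outside.

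Of the mitotic kinases, aurA (FBgn0000147), which acts at centrosomes and spindle poles, had a strong peak (328, rank 823) at 3R:11963023-11963130, 78 bp upstream. Its values were 134, 126 and 67.0 (109 ± 36.4, SD, n = 3), all in the top lists, and CG3281 starts 241 bp away. polo (FBgn0003124) had 181 at 3L:20309749-20310158, 93 bp upstream, with 90.4 in replicate 1 and 62.4 in replicate 3. The peak was not found in replicate 2, although it ranked 1483 and 1855 in the others. aurB, the kinase of the chromosomal passenger complex, had 79.8 in the pooled relaxed list and no thresholded summit.

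The checkpoint kinase mei-41 (FBgn0004367), the fly ATR, had 2 thresholded promoter summits 207 bp apart. The one at X:16391376-16391569, 209 bp upstream of mei-41 and 51 bp from the start site of TH1, had 227. The one at X:16391491-16391900, 2 bp upstream, had 113. Replicates 2 and 3 held both, with 105 and 49.0 for the first and 34.4 and 23.4 for the second. Replicate 1 had a single summit between them, 101 bp upstream, with 74.7, so that only the one nearest the start site was matched. The mean of that one, 44.2, was 28.9 without replicate 1. grp, the fly Chk1, had no thresholded promoter summit (42.0 in the pooled relaxed list), but had a peak of 166 in an intron, 919 bp upstream of an internal start site and 463 bp from the start site of CG31807. It had 91.7 and 33.7 in replicates 1 and 3 and was not found in replicate 2.

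Replication genes and the other genes were then set side by side. In the thresholded list the others had the higher share, 52.2% against 35.3%. In the top lists of replicates 1, 2 and 3, the replication genes had 7, 6 and 5 of 17 (35.3% ± 5.88, SD, n = 3) and the others 12, 9 and 9 of 23 (43.5% ± 7.53, SD, n = 3). Over all genes the shares were 21.4%, 18.3% and 20.1%. The others were higher in every replicate, by 11.0, 3.84 and 9.72 percentage points within a replicate (8.18 ± 3.82, SD, n = 3). The same 17 and 23 genes were counted each time, so this SD is the spread between lists. It does not measure how far so few genes stand for their classes. Without replicate 1, with support in replicates 2 and 3, the others numbered 7 of 23 (30.4%) and the replication genes 5 of 17 (29.4%). Without replicate 2, and also without replicate 3, the others numbered 8 of 23 (34.8%) and the replication genes 4 of 17 (23.5%). All genes had 13.2%, 15.4% and 13.9% without replicates 1, 2 and 3.

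The difference moved with the window, the annotation and the peak set. Within 200 bp of a start site the shares were alike, 6 of 17 (35.3%) against 8 of 23 (34.8%), with 14.8% of all genes. With each summit given to its nearest start site the counts were the same, with 15.2% of all genes. In the upper 2311 peaks by signal, 4 of 17 replication genes (23.5%) and 6 of 23 others (26.1%) had one, with 12.4% of all genes. Support in all replicates gave the same counts, with 12.2%. The others were higher within 1000 bp, 65.2% against 35.3%, and with the outermost start site, 47.8% against 29.4%. The others had more annotated start sites per gene, 1.91 on average against 1.29, with 1.41 over all genes. Among genes with 1 start site, a setting chosen after seeing the data, 2 of 12 replication genes and 6 of 12 others had a promoter summit, with 16.1% of all such genes. At the lower end, all 23 others had a promoter summit in the pooled relaxed list, against 12 of 17 replication genes and 51.1% of all genes. Of genes with such a relaxed summit, 6 of 12 replication genes and 12 of 23 others (52.2%) reached the thresholded list, against 40.4% of all genes. The 5 genes without any relaxed promoter summit were Orc4, Orc6, Mcm6, Mcm7 and RnrL, all of the replication group. The 17 genes with a relaxed summit only had signals from 29.2 to 97.1, with a median of 69.1.

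**Figure D4:**
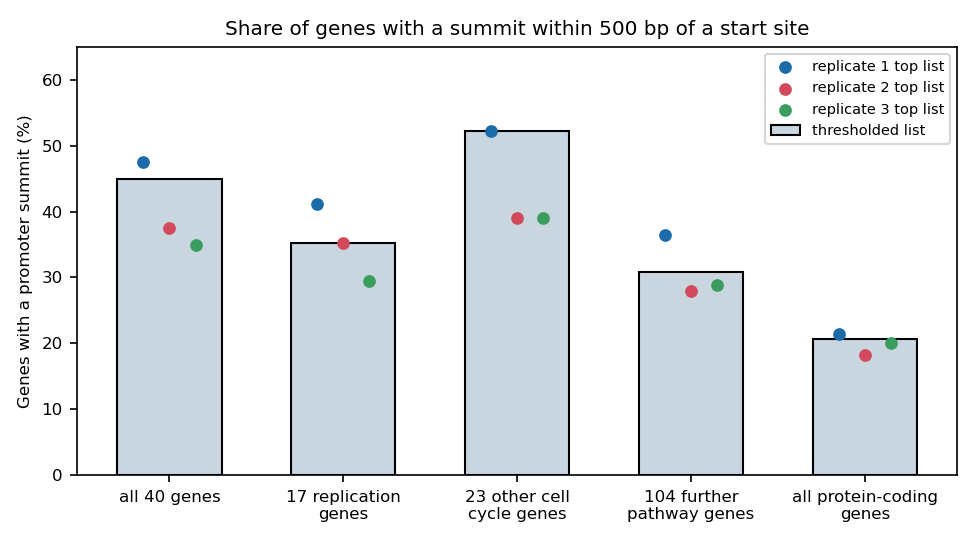
Percentage of genes that had a promoter summit (vertical axis) for the 40 genes, the replication genes and the other cell cycle genes. Beside them are 104 further genes listed around these pathways and all protein-coding genes. Bars are the thresholded list and points the top list of each replicate; the 40 genes stand at 45.0% against 20.7% for all genes, and the points of both classes overlap.

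The share of the 40 genes stayed above that of all genes when the counting was changed. With only the outermost start site it was 16 genes (18.6% of all genes), with each summit given to its nearest start site 14 (15.2%), and within 1000 bp 21 (23.8%). Among the stronger peaks, those in the upper 2311 by signal, it was 10 (12.4%), and with support in all replicates 10 (12.2%). Among the same thresholded peaks, leaving out replicate 1, 2 or 3 and asking for support in both others gave 12 each time. All genes had 13.2%, 15.4% and 13.9%.

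The promoter summits of the list had signals close to those of promoter summits in general. Their median signal was 181 over 21 summits, against 188 over 2257 promoter summits of all genes, with 253 in the 6 of replication genes and 160 in the 15 of the others. Replicates 1, 2 and 3 held 20, 16 and 21 of the 21, and 11 (52.4%) were in all top lists, as were 55.2% of all promoter summits. At the level of genes, 10 of the 18 had a peak with support in every replicate: Mcm2, dpa, dup, RnrS, CycE, Cdk1, Dp, Rbf2, fzr and aurA.

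The summits of the list lay where promoter summits in general lay. Of the 21 summits, 20 (95.2%) lay upstream of the nearest start site of the gene, with a median of 93 bp. Over all pairs of a gene and a promoter summit it was 88.3%, with a median of 130 bp. The side refers to that start site only. At lat, dpa, dup, geminin, E2f2 and polo the summit lay in a UTR exon of the same gene, downstream of its outermost start site. Within 200 bp lay 66.7%, against 66.3%. Neighbouring protein-coding genes shared many of these summits: 12 of 21 (57.1%) lay within 500 bp of such a gene's start site, against 40.7% over all promoter summits. For 5 (Cdk1, E2f2, Rbf2, fzy and the upstream summit of mei-41) the other gene's start site was the nearer. A shared summit cannot be given to 1 of its genes from these lists. The sequence within 50 bp of the summits held a median of 40.6% G and C, against 35.6% at all promoter summits.

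**Figure D5:**
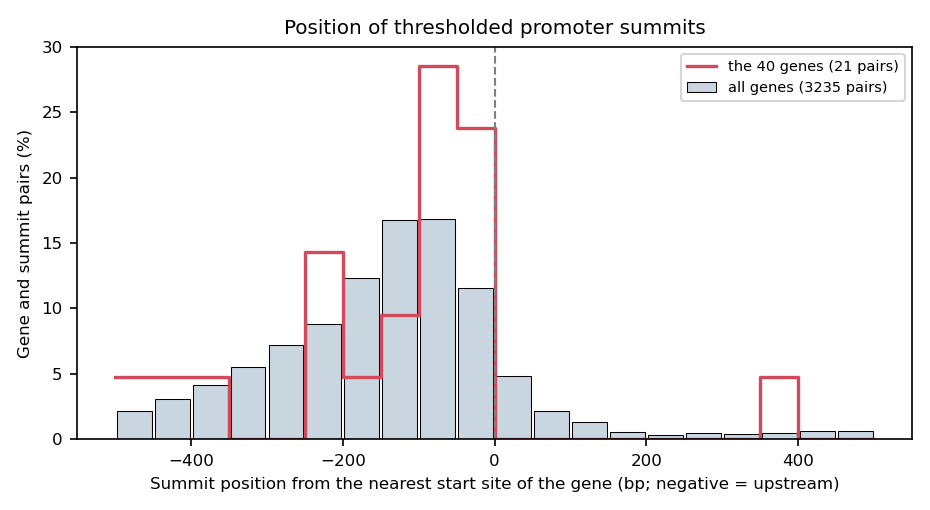
Position of thresholded promoter summits from the nearest start site of the gene (horizontal axis, bp, negative is upstream), as the percent of pairs of gene and summit in bins of 50 bp. The red line is the 21 pairs of the 40 genes and the grey bars all 3235 pairs; most of both lie in the 250 bp upstream of the start site.

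Counting the gene body and 2 kb upstream, 25 of the 40 genes (62.5%) had a thresholded summit, against 29.8% of all genes, 9 of 17 replication genes and 16 of 23 others. In the top lists the share was 54.2% ± 2.89 (SD, n = 3), against 28.9% ± 0.954 (SD, n = 3) of all genes (29.8%, 27.9% and 29.0% in replicates 1, 2 and 3). Promoters account for most of these genes. Beyond them lay 11 summits in 9 genes, those given above for Orc6, Mcm3, PCNA, Cdk1, Cdk4, stg, E2f1, E2f2 and grp. Of the 11, 8 were within 500 bp of the start site of another protein-coding gene. The exceptions among the 11 were the peak upstream of Cdk4 and both peaks in introns of E2f1. No thresholded summit was found in these stretches for the other 15 genes. Each replicate was also left out, with support asked for in both others among the same thresholded peaks. Whichever replicate was left out, 16 of the 40 genes (40%) had a summit in the gene or upstream. All genes had 20.6%, 23% and 21.2% without replicates 1, 2 and 3.

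The letters of known sites were looked for on either strand in the promoters, up to 500 bp from a start site. TATCGATA, which reads the same on both strands, was near 9 of the 40 genes (22.5%), against 13.0% of all genes and 22.3% of genes with a thresholded promoter summit. They were Orc2, lat, Orc5, PCNA, CycA, Cdk2, Cdk4, Rbf2 and mei-41. Within 200 bp the same 9 were counted, against 9.72% of all genes, and the shorter ATCGATA was near 17, against 29.2%. Within the list the site was no more frequent in genes with a summit: 3 of 18 genes with a thresholded promoter summit and 6 of 22 without had it. Only at Rbf2 and mei-41, shown above, did it lie within 100 bp of a summit, 50 and 14 bp away, so 2 of 21 summits (9.52%) had it, against 8.51% of all promoter summits.

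The letters of E2F sites were near a larger share of these genes than of all genes. TTTGGCGC was near 14 of the 40 (35.0%), against 7.48% of all genes, and near 8 of 17 replication genes. TTTCCCGC was near 5 (12.5%), against 5.59%. With either form counted, 18 (45.0%) had a site, against 12.5% of all genes, 10 of 17 replication genes and 8 of 23 others. They were near 11 of the 22 genes without a thresholded promoter summit and 7 of the 18 with one. In dpa, dup and lat, TTTGGCGC lay within 100 bp of a summit, 3 of 21 (14.3%) against 1.46% of all promoter summits; at lat it was found on both strands in overlapping letters. In CycE, shown above, the sites were 282 and 306 bp from the summit.

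The PAR family site is the kind of site that Pdp1 is known to bind, and its shares were near those of all genes. TTACGTAA was near none of the 40 genes, against 1.86% of all genes, and TTATGTAA near 4 (dpa, Mcm7, RnrL and fzr; 10%), against 8.91%. At fzr alone TTATGTAA was within 100 bp of a summit, 18 bp away, so 1 of 21 summits (4.76%) had it, against 1.99% of all promoter summits. GGTCACACT, the core of a motif common at fly promoters, was near 9 genes (22.5%), against 8.61%. CACGTG was near 3 (7.50%), against 15.4%, and GAGAGAG near 6 (15%), against 15.7%, none of them a replication gene. A match of letters does not show a bound site.

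Other genes listed around these pathways, 104 that could be matched, had a promoter summit in 32 cases (30.8%), against 20.7% of all genes. Their strongest summits numbered 30, as some were shared between these genes. In the top lists the share was 31.1% ± 4.74 (SD, n = 3). By list the shares ran from 14.3% (dREAM) and 22.2% (anaphase-promoting complex and SCF) to 40% (checkpoint and damage), with few genes in each. Helicase loading and activation had 4 of 11, with chif (203), the Dbf4 gene, Psf1 (181), Cdc7 (136) and Sld5 (118). Polymerases and the fork had 6 of 21, led by Dref (291), which encodes the TATCGATA factor and shares its summit with RpL13, PolD2 (288), RPA1 through the Mcm2 peak (242) and CG8142 (219), with Prim1 and PolA1 below them. A list of Cdk regulators with further cyclins and Cdks had 6 of 16. It was led by Cdk12 (275), CycH (142), Cdk7 (124) and CycG (116), with CycK and Cdk8 near the threshold. Of the dREAM complex, which holds E2F and Rb proteins with Myb, 1 of 7 had a summit, mip130 (152), not found in replicate 1. The top lists of replicates 1, 2 and 3 had 4, 1 and 2 of the 7, against 21.4%, 18.3% and 20.1% of all genes. Among all these further genes, the summits of CycG, Cdk8, lmgA, SMC1, BubR1 and Mad1 were not found in replicate 2. The summit shared by lok and barr was not found in replicate 3.

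Subunits of the anaphase-promoting complex and of SCF ligases had 4 of 18 (22.2%), near the 20.7% of all genes. These were Cdc16 (257), slmb (149), lmgA (134) and Cdc27 (123). Checkpoint and damage genes had 4 of 10. These were tefu (359), the fly ATM, nbs (236), p53 (192) and lok (188), the fly Chk2, whose summit is shared with the condensin gene barr. Spindle checkpoint genes had 3 of 9, with Bub3 (237), BubR1 (171) and Mad1 (109). Cohesin and condensin genes had 4 of 12, with SMC2 (484), Cap-D2 (237), which shares its summit with Bub3, barr (188) and SMC1 (126). The peak of SMC2, shared with Ercc1, had 164, 181 and 136 in replicates 1, 2 and 3 (160 ± 22.9, SD, n = 3), high in every list. That of tefu, shared with Hsc70-4, had 113, 171 and 71.9 (119 ± 49.9, SD, n = 3). Most summits of these further genes lay within 500 bp of another protein-coding gene's start site. Those of chif, PolA1, CycH, CycG, CycK, Cdk8, Cdc27, p53, BubR1 and SMC1 did not.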

How the data were processed

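Peaks were measured by ChIP-seq of Pdp1-eGFP in 3 biological replicates of whole embryos, with chromatin sonicated to 200 to 800 bp, per the labels. The authors deposited peak lists in dm3 and dm6 coordinates; the dm3 lists were not used here. Per the listings deposited with the samples, a relaxed list was called against a control for each replicate and for the replicates pooled, and the thresholded list holds peaks kept by the irreproducible discovery rate procedure. No aligner, peak caller or version is given in the sources used here. The signal is the authors' value per peak, not scaled between lists, and means ± SD over replicate lists include differences of scale. Each deposited peak also has a −log10 q-value, which entered no count. The deposited offset places the summit.

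Genes and start sites came from Ensembl release 115, matched by symbol, with lat found by synonym as Orc3. Of 106 further pathway genes 104 matched. Only protein-coding genes were kept, so start sites of noncoding genes entered no count. The members, lists, motifs and alternatives were chosen with earlier results of these data known. Named are every gene of the list and every further pathway gene with a thresholded promoter summit, with values for up to 4 per pathway list by signal. Top lists are the 4622 highest peaks of each replicate. Counts stand beside the share of all protein-coding genes, and no test was made, since there is 1 group. The counting was tested on simulated summits placed around the outermost start site of genes. All those inside the promoter window, or in the gene or upstream stretch, were recovered. Other start sites were not part of that check. Python 3.11.15, numpy 2.4.6, pandas 2.3.3 and matplotlib 3.10.9 were used. The alternatives were other windows, reaches, peak sets, start sites, match distances and motif forms, and leaving out each replicate.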

Additional observations from a re-analysis of the deposited data

How the results depend on the processing

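The count of the 40 genes with a promoter summit (18) was 14 within 200 bp, 21 within 1000 bp, 16 with only the outermost start site and 14 with each summit given to its nearest gene. It moved to 10 (25.0%, against 12.4% of all genes) in the upper 2311 peaks by signal, to 10 (12.2% of all genes) with support in all replicates and to 35 in the pooled relaxed list, and was 12 without any 1 replicate (12 to 12). Replication genes moved from 6 to 12 in the pooled relaxed list, and were 4 to 5 without 1 replicate. They were 4 in the upper 2311, 4 with support in all replicates and 6 with each summit given to its nearest start site. The others moved from 12 to 6 in the upper 2311, 23 in the pooled relaxed list, 6 with support in all replicates, and 7 to 8 without 1 replicate, 7 being without replicate 1. With genes of 1 start site, a setting chosen after seeing the data, the counts were 8 of 24, 2 of 12 and 6 of 12. Genes with a summit in the body or upstream (25) were 10 with no upstream reach (12% of all genes) and 14 in the upper 2311 (18.4%). They were 13 with support in all replicates (19% of all genes). Without replicate 1, 2 or 3 they were 16 each time, against 20.6%, 23% and 21.2% of all genes. All counts without a replicate kept thresholded peaks, called on all replicates pooled, that had support in both others. TATCGATA (9 genes) was near 2 within 100 bp of a summit and 17 as ATCGATA. Mean signals moved by over 1.5 times at 2 peaks, both without replicate 1: Dp at -36 from 46.3 to 30.4 and mei-41 at -2 from 44.2 to 28.9. Of the 21 promoter summits, 13, 15 and 16 were found in all replicate lists at match distances of 50, 100 and 200 bp. In every peak set the share of the 40 genes was above that of all genes. The cause of these changes was not tested beyond their construction, which takes in fewer or more peaks, genes or bases. No paired analysis was possible because there is 1 group of samples, and the classes of genes were compared within each replicate.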
